A study of Homo sapiens with 24 samples.

Results

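SGK1 and 8 other genes of epithelial sodium transport were followed over time in A549 cells exposed to the synthetic glucocorticoid (GC) dexamethasone (dex). The set holds the kinases SGK1, SGK2 and SGK3, the alpha, beta and gamma subunits of the epithelial sodium channel ENaC (SCNN1A, SCNN1B and SCNN1G), the ubiquitin ligase NEDD4L, the scaffold CNKSR3 and the Na,K-ATPase subunit ATP1B1. These 9 genes were picked by symbol from the 33127 genes to which transcripts of the count table could be assigned, and the counts of all transcripts of a gene were summed. A549 is an established human line derived from a lung adenocarcinoma, so every library describes 1 line of cultured tumor cells. The cells received 100 nM dex dissolved in ethanol (EtOH), or the same volume of EtOH alone (0.02% v/v), and their poly-A RNA was sequenced at 6 time points from 1 to 11 h, spaced 2 h apart. With 2 libraries, labelled biological replicates, in each of the 12 groups, there are 24 libraries. The labels do not say that these came from separate cultures, so the p-values measure the spread between these libraries, which may be technical. The paper's methods speak of triplicates, and the treatment text of the labels gives 1 h for every library. The labelled duration was used here.

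SGK1 is a serine/threonine kinase whose gene is a classical target of GCs and of the mineralocorticoid aldosterone. In epithelia that absorb sodium, including the kidney collecting duct, the colon and the alveolar lining of the lung, sodium enters through ENaC at the apical membrane and is pumped out by the Na,K-ATPase at the basolateral membrane. NEDD4L tags ENaC with ubiquitin and so removes it from the surface. SGK1 phosphorylates NEDD4L, which then binds 14-3-3 proteins instead of the channel, and CNKSR3 is a scaffold that holds SGK1, NEDD4L and ENaC together. All values below are RNA levels, and none of these proteins or their activities was measured.

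SGK1 (ENSG00000118515.11) lies on the minus strand of chromosome 6 (GRCh38 chr6:134169246-134318112), and the count table lists 10 of its transcripts. Their 5′ ends differ, and so do the N-termini that several of them encode. SGK1-206, SGK1-220 and SGK1-229 lie wholly upstream of SGK1-201, with no base below chr6 134214954, while SGK1-201 begins at 134174896. The N-terminus of the classical protein, encoded by SGK1-201, directs its rapid degradation. The first 60 coding bases are shown for the 5 different N-termini among the transcripts with more than 10 counts per library. Capitals mark bases that lie in a stretch of 12 bases found in no other SGK1 transcript of the table.
SGK1-201 (coding from chr6 134174807, minus strand): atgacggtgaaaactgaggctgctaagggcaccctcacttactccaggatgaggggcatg
SGK1-203 (coding from chr6 134174632, minus strand): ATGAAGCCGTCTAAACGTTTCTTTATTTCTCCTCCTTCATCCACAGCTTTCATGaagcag
SGK1-204 (coding from chr6 134317460, minus strand): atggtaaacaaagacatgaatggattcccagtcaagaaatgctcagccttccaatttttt
SGK1-205 (coding from chr6 134175661, minus strand): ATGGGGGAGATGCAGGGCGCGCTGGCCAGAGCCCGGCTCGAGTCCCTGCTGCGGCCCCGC
SGK1-223 (coding from chr6 134177822, minus strand): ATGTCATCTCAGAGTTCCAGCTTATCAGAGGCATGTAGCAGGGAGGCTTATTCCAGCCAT
SGK1-211 starts with the same 60 coding bases as SGK1-201, and the low-count SGK1-220 and SGK1-229 share those of SGK1-204, so these sequences carry no capitals. The sequences are from the GENCODE release 29 transcripts on GRCh38, whose versions differ from those in the table for 6 of the 10 SGK1 transcripts.

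With EtOH, ATP1B1 and SGK1 were the most abundant of the set and the beta and gamma ENaC subunits were close to absent. Levels are given as CPM, counts scaled to the sequencing depth of each library, and genes are compared with each other in CPM per kilobase of transcript. On that scale the median over the 12 EtOH libraries was 95.9 for ATP1B1, 36.3 for SGK1, 13.8 for NEDD4L, 7.16 for SGK2, 3.13 for SGK3, 2.57 for SCNN1A and 2.18 for CNKSR3. It was 0.0221 for SCNN1G and 0 for SCNN1B. The ranges of SGK3 and SCNN1A overlapped between libraries, as did those of SCNN1A and CNKSR3 and of SCNN1G and SCNN1B, so neighbours in these pairs did not differ in order beyond their spread. The level of CNKSR3 per length is uncertain, since its longest transcript measures 21063 bases in release 29 and carries another version in the table. From 3 to 11 h with dex, the median over 10 libraries was 94.7 for SGK1 against 68.2 for ATP1B1, and 11.3 for SCNN1A against 8.82 for SGK2. The ranges over these libraries overlapped in both pairs, at 74.0 to 103 for SGK1 and 59.0 to 80.4 for ATP1B1, and at 5.81 to 20.2 for SCNN1A and 7.85 to 11.4 for SGK2.

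Each time point was tested by itself with edgeR on all 15337 genes that passed a filter on low counts, and a gene was called at a Benjamini-Hochberg adjusted p of at most 0.1. SCNN1B did not pass the filter. SCNN1G passed it only through its dex libraries and so had to differ, and it is described by its counts and left out of the calls. Of the other 7 genes, 1 was called at 1 h (1.06% of all tested genes were called), 3 at 3 h (14.1%), 5 at 5 h (25.0%), 4 at 7 h (28.2%), 3 at 9 h (19.8%) and 4 at 11 h (9.12%). Higher with dex were 1 gene at 1 h (0.639% of all tested genes), 2 at 3 h (8.42%), 3 at 5 h (12.4%), 3 at 7 h (14.7%), 2 at 9 h (10.8%) and 3 at 11 h (5.80%). Lower were 0 at 1 h (0.417%), 1 at 3 h (5.65%), 2 at 5 h (12.6%), and 1 each at 7 h (13.5%), 9 h (8.95%) and 11 h (3.33%). At 5 h the median log2 fold change of the 7 genes was 0.21, against 0.01 over all tested genes. The number of genes called in all moved with single libraries. At 1 h it was 162, but 458 without dex replicate 1, 691 without dex replicate 2 and 88 without EtOH replicate 2. At 3 h it was 2159, but 1398 without dex replicate 1 and 1290 without EtOH replicate 1. At 5 h it was 3834, and 2756 to 3333 without 1 library. At 7 h it was 4324, but 2006 without dex replicate 1 and 2419 without dex replicate 2. At 9 h it was 3033, but 1066 without dex replicate 1, 1056 without dex replicate 2 and 5297 without EtOH replicate 1. At 11 h it was 1399, but 4978 without dex replicate 1, 2838 without dex replicate 2, 720 without EtOH replicate 1 and 750 without EtOH replicate 2.

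**Figure D1:**
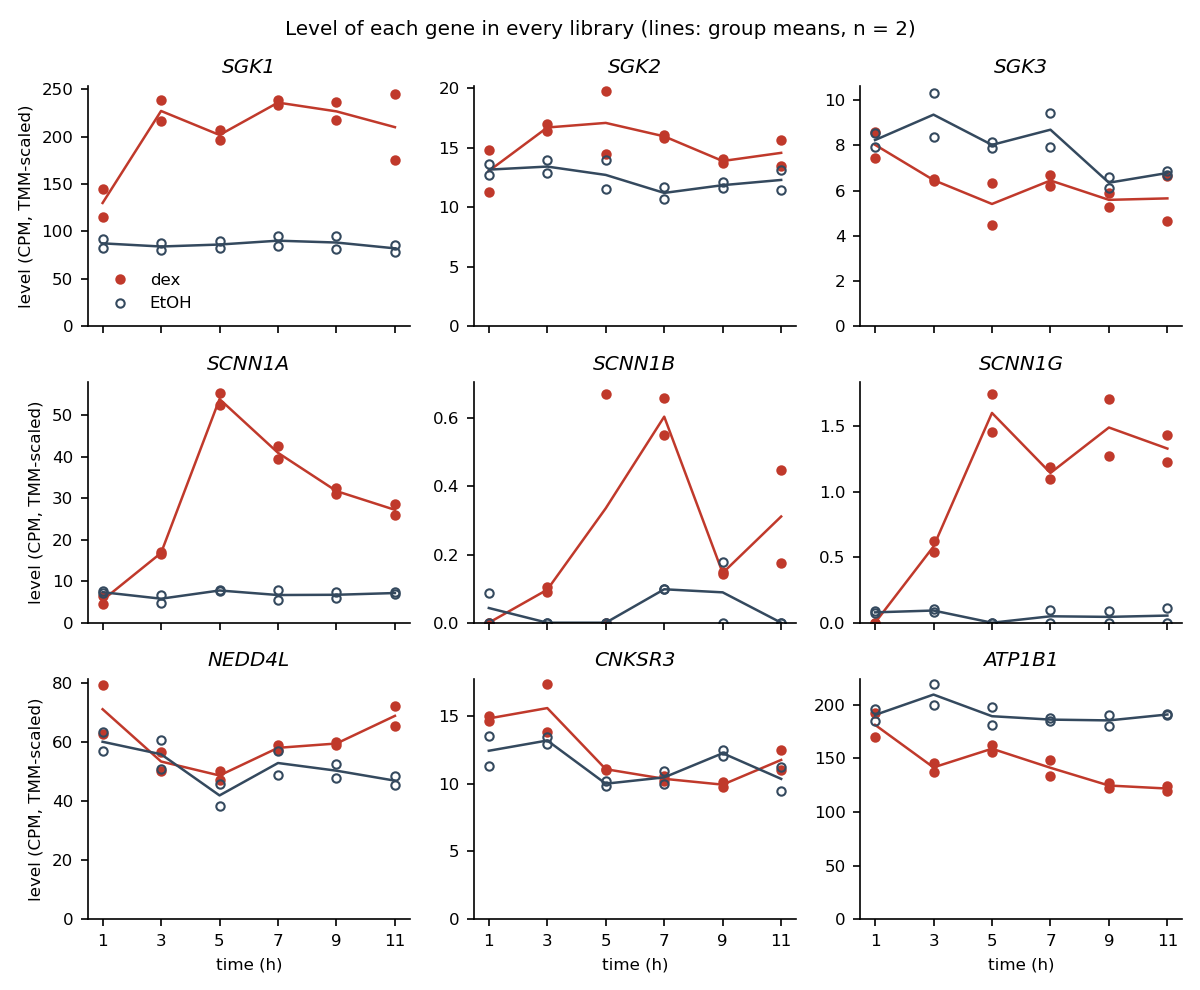
Level of each of the 9 genes in every library, in CPM scaled by the TMM method, against time in hours; filled red points are dex libraries, open dark points EtOH libraries, and lines join the means of the 2 libraries of a group. All 12 dex libraries lie above all 12 EtOH libraries for SGK1, SCNN1A is highest with dex at 5 h (55.4 and 52.4 CPM), and ATP1B1 is lower with dex from 3 h on.

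SGK1 rose at every time point. At 1 h it measured 145 and 115 CPM in the dex libraries against 82.8 and 92.1 CPM in the EtOH libraries, and at 3 h 216 and 238 CPM against 80.5 and 87.8 CPM. The level at 5 h was 196 and 207 CPM with dex and 82.2 and 90.2 CPM with EtOH. At 7 h it was 238 and 233 CPM against 85.1 and 95.4 CPM. Dex libraries thus lay above EtOH libraries from the first time point, with most of the rise complete at 3 h. At 9 h the level was 236 and 217 CPM against 94.8 and 81.8 CPM, and at 11 h 245 and 175 CPM against 85.8 and 78.6 CPM. The lowest dex library of the series (115 CPM) was above the highest EtOH library (95.4 CPM). The widest gap between replicates was that of the dex libraries at 11 h.

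On the log2 scale the SGK1 fold change was 0.57 ± 0.13 (SE, n = 2 libraries per group) at 1 h, 1.43 ± 0.10 at 3 h, 1.22 ± 0.10 at 5 h, 1.39 ± 0.081 at 7 h, 1.38 ± 0.11 at 9 h and 1.37 ± 0.16 at 11 h. The adjusted p was 0.0339 at 1 h and at most 0.000172 from 3 to 11 h. The call at 1 h rests on both EtOH libraries of that time: without replicate 1 the adjusted p was 0.61, and without replicate 2 it was 0.192. The dex effect was larger at 3 h than at 1 h by 0.86 ± 0.18 (adjusted p = 0.00581), while the step from 3 to 5 h, at -0.21 ± 0.18, did not pass (adjusted p = 0.623).

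**Figure D2:**
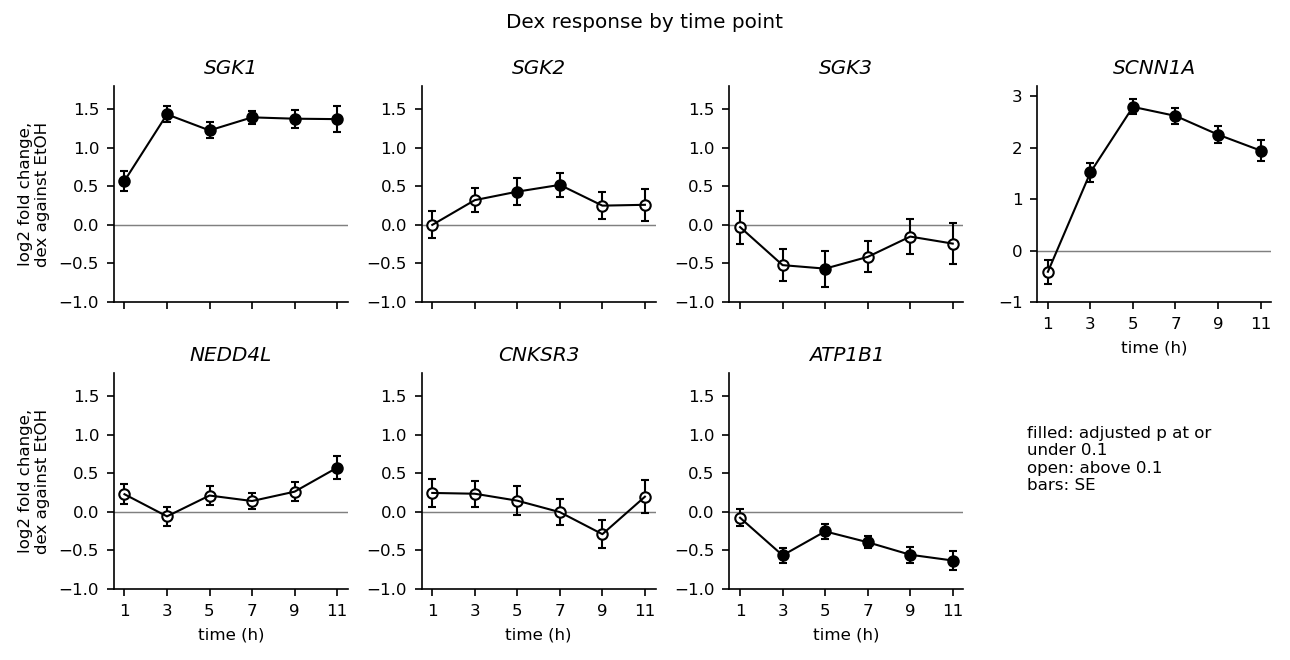
Log2 fold change of dex against EtOH (points, with SE bars) at each time point in hours for 7 of the 9 genes, n = 2 libraries per group; filled points have an adjusted p of at most 0.1, and the axis of SCNN1A is longer than the others. SGK1 is called at all 6 time points, SCNN1A reaches 2.79 at 5 h, and CNKSR3 is called at none. SCNN1B was not tested, and SCNN1G is left out because its EtOH counts are 0 or 1.

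Counts within SGK1 were spread over 6 transcripts. Of the gene's counts with EtOH, SGK1-201 held 21.2%, SGK1-203 20.4%, SGK1-204 20.1%, SGK1-205 19.8%, SGK1-223 12.9% and SGK1-211 5.16%. With dex the shares were 20.7%, 19.8%, 20.5%, 20.8%, 12.8% and 5.11% in the same order. SGK1-207 averaged 4.21 counts per library, SGK1-220 1.33 and SGK1-229 0.0417, and SGK1-206 had none in any library.

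Most reads of SGK1 cannot be tied to a transcript. Of all stretches of 50 bases, the length of a read, only 1.32% in SGK1-201 were found in no other SGK1 transcript of the table, against 8.08% in SGK1-203, 7.46% in SGK1-204, 17.0% in SGK1-205, 13.4% in SGK1-223 and 3.37% in SGK1-211. By contrast, 84.0% of the stretches of SGK1-220 were its own, and this transcript was close to absent. How the authors placed reads that match several transcripts is not given in the sources used here, and its part in the near-equal shares of the first 4 transcripts was not tested.

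All 6 transcripts were called from 3 to 11 h, each of them higher with dex, where 7.10%, 14.7%, 16.2%, 10.4% and 5.06% of all tested transcripts were called in either direction. Their log2 fold changes lay between 1.29 (SGK1-203) and 1.54 (SGK1-204) at 3 h, between 1.05 (SGK1-223) and 1.39 (SGK1-204) at 5 h, and between 1.16 (SGK1-211) and 1.64 (SGK1-205) at 7 h. At 1 h none was called by edgeR or DESeq2 (0.417% of all tested transcripts were called by edgeR), with log2 fold changes from 0.49 to 0.64 and adjusted p from 0.109 to 0.702. At an unadjusted p below 0.05, all 6 passed in edgeR and 5 in DESeq2. With a replicate block edgeR called 5 of the 6 at 1 h, and without a filter on low counts it called 3. Without replicate 2 of dex, 5 of the 6 were called at 1 h, and without replicate 2 of EtOH only 2 were called at 11 h.

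Whether single SGK1 transcripts responded apart from the rest of the gene cannot be decided from these counts. Of the stretches of read length, only 1.32% (SGK1-201) to 17.0% (SGK1-205) belonged to 1 of the 6 tested transcripts alone. Reads from the shared stretches can make the counts of the 6 move together, so the lack of calls does not show a common response. In edgeR's test of each transcript against the others of its gene, 0 of 6 were called at each time point, where 0.0116%, 0.405%, 0.811%, 0.851%, 0.506% and 0.349% of all tested transcripts were called from 1 to 11 h. The largest deviation was that of SGK1-205 at 7 h, with a log2 difference of 0.18 and an unadjusted p of 0.0459 that did not pass adjustment, and no other transcript or time point had an unadjusted p below 0.05.

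**Figure D3:**
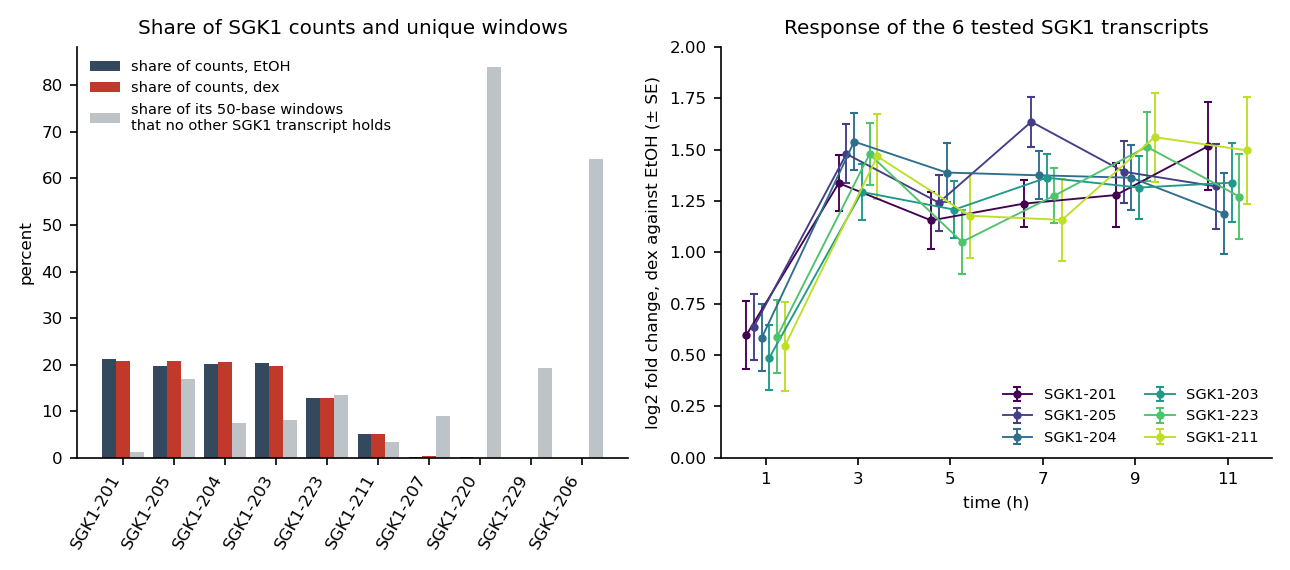
Left, percent of SGK1 counts held by each of its 10 transcripts with EtOH and with dex, beside the percent of each transcript's 50-base stretches that no other SGK1 transcript holds; right, log2 fold change (± SE, n = 2 libraries per group) of the 6 tested transcripts against time in hours, with points shifted sideways for clarity. Shares are close between EtOH and dex (SGK1-201 at 21.2% and 20.7%), and the 6 responses run together, though most of their stretches are shared.

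The relatives of SGK1 moved less. SGK2 (ENSG00000101049.15, chr20:43558968-43588237, plus strand) and SGK3 (ENSG00000104205.13, chr8:66667596-66862022, plus strand) encode kinases with a closely related catalytic domain, and SGK3 carries a PX domain that brings it to endosomes. SGK2 measured 16.0 and 15.8 CPM with dex against 11.7 and 10.7 CPM with EtOH at 7 h, where it was called (log2 fold change 0.52 ± 0.15, adjusted p = 0.0121). At 5 h one dex library (14.4 CPM) was close to an EtOH library (13.9 CPM) while the other stood at 19.7 CPM. SGK2 was called there at 0.43 ± 0.18 (adjusted p = 0.0844), and without that high library, replicate 2, its adjusted p was 0.666. The call at 5 h was also lost without EtOH replicate 2 (adjusted p = 0.469), with DESeq2 (0.343), with one transcript per gene (0.244) and without a filter on low counts (0.107). At 7 h the call was lost without dex replicate 1 (adjusted p = 0.159) and with DESeq2 (adjusted p = 0.142). Its log2 fold change was 0.00 at 1 h, and 0.32, 0.25 and 0.26 at 3, 9 and 11 h, with no call.

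SGK3 was called lower at 5 h only, with 6.34 and 4.48 CPM with dex against 7.88 and 8.16 CPM with EtOH (log2 fold change -0.57 ± 0.23, adjusted p = 0.0829). That call did not hold with DESeq2 (adjusted p = 0.35), nor without EtOH replicate 1, EtOH replicate 2 or dex replicate 2 (adjusted p = 0.174, 0.261 and 0.517). At 3 h both dex libraries (6.44 and 6.49 CPM) lay below both EtOH libraries (10.3 and 8.38 CPM), with a log2 fold change of -0.52 ± 0.20 and an adjusted p of 0.114, which fell to 0.0769 without EtOH replicate 2. Of the 50-base stretches of SGK3, 6.29% occur also in other genes, C8orf44 among them, so its counts can hold reads of these genes. Whether SGK1 and its relatives differ in response was not tested.

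SCNN1A (ENSG00000111319.12, chr12:6346843-6377730, minus strand), the alpha subunit of ENaC, showed the largest rise of the set among genes with measurable EtOH levels. At 1 h it measured 6.32 and 4.56 CPM with dex against 7.17 and 7.55 CPM with EtOH. At 3 h it had risen to 17.1 and 16.5 CPM against 4.85 and 6.72 CPM, and at 5 h to 55.4 and 52.4 CPM against 7.88 and 7.66 CPM. The dex level was highest at 5 h, and it was lower in both libraries of each later time point. It was 39.4 and 42.5 CPM at 7 h against 5.41 and 7.94 CPM with EtOH, and 32.5 and 30.9 CPM at 9 h against 5.97 and 7.50 CPM. At 11 h it stood at 25.9 and 28.5 CPM against 7.43 and 6.88 CPM. Dex libraries were below EtOH libraries at 1 h and above them from 3 h on.

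The log2 fold change of SCNN1A was -0.41 ± 0.24 at 1 h (adjusted p = 0.853), 1.52 ± 0.19 at 3 h, 2.79 ± 0.15 at 5 h, 2.62 ± 0.15 at 7 h, 2.25 ± 0.17 at 9 h and 1.95 ± 0.20 at 11 h. The adjusted p from 3 to 11 h was at most 4.93e-05, and these 5 calls held in every alternative that was run. The dex effect grew by 1.92 ± 0.27 between 1 and 3 h (adjusted p = 4.76e-05) and by 1.27 ± 0.25 between 3 and 5 h (adjusted p = 0.00181). Between 5 and 11 h it fell by 0.87 on the log2 scale (adjusted p = 0.0708).

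SCNN1G (ENSG00000166828.2, chr16:23182715-23216883, plus strand) and SCNN1B (ENSG00000168447.10, chr16:23278231-23381299, plus strand) encode the gamma and beta subunits, which sit beside alpha in the full channel, and both were near the detection limit. SCNN1G had 0 or 1 count in each of the 12 EtOH libraries and 0 in both dex libraries at 1 h. With dex it had 6 and 6 counts at 3 h, 16 and 13 at 5 h, 12 and 9 at 7 h, 12 and 17 at 9 h, and 14 and 16 at 11 h. From 3 h on, each dex library therefore held more counts than every EtOH library. At 5 h, with 29 counts against 0, SCNN1G was 11.6-fold higher with dex if the 2 EtOH libraries together are set at a floor of 3 counts. The exact lower limit of that ratio, which also covers the counting error of the dex counts, was 8.88. In CPM the ratio of dex to EtOH was 6.29 at 3 h (95% interval 1.40 to 57.9), 23.1 at 7 h (3.72 to 957), 30.2 at 9 h (5.00 to 1232) and 22.7 at 11 h (3.78 to 927), from 2, 1, 1 and 1 EtOH counts. These exact binomial intervals cover counting error only.

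SCNN1B was not tested, since its EtOH libraries held up to 2 counts and its dex libraries up to 6. With dex it had 0 and 0 counts at 1 h, 1 and 1 at 3 h, 0 and 6 at 5 h, 6 and 5 at 7 h, 1 and 2 at 9 h, and 2 and 5 at 11 h. Over all time points 29 counts with dex stood against 5 with EtOH, a ratio of 6.33 in CPM (95% interval 2.42 to 20.9). At 7 h the ratio was 6.06 (1.32 to 56.3), from 11 counts against 2. At 5 h, where all 6 counts came from replicate 2, and at 11 h, no EtOH library had a count, and the exact lower limit of the ratio was 1.42 at 5 h and 1.09 at 11 h. The other dex library at 5 h had 0 counts, like both EtOH libraries.

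**Figure D4:**
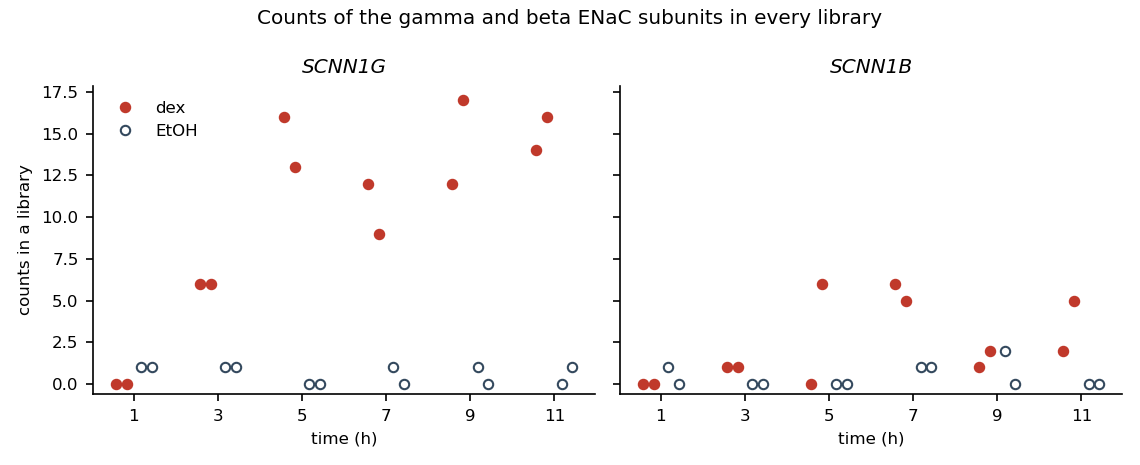
Raw counts of SCNN1G (left) and SCNN1B (right) in every library against time in hours, with filled red points for dex and open dark points for EtOH, shifted sideways for clarity. SCNN1G has 6 or more counts in each dex library from 3 h on and at most 1 in each EtOH library, while SCNN1B stays at 6 counts or below.

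NEDD4L and CNKSR3 changed little. NEDD4L (ENSG00000049759.17, chr18:58044367-58401540, plus strand) was called higher at 11 h only, with 65.5 and 72.2 CPM with dex against 48.5 and 45.3 CPM with EtOH (log2 fold change 0.57 ± 0.15, adjusted p = 0.0315). Without EtOH replicate 1 the adjusted p at 11 h was 0.348, and without replicate 2 it was 0.556. From 1 to 9 h its log2 fold change lay between -0.06 and 0.26. At 1 h the dex libraries stood at 62.8 and 79.4 CPM against 56.9 and 63.2 CPM, so the groups overlapped, and without dex replicate 1 the adjusted p there was 0.0891. A part of NEDD4L, 7.86% of its 50-base stretches, is antisense to another gene. The libraries were stranded, but the use of strand in counting is not given in the sources used here.

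CNKSR3 (ENSG00000153721.18, chr6:154387504-154510659, minus strand) was called at no time point by edgeR or DESeq2. Its levels ran from 9.72 to 17.3 CPM with dex and from 9.45 to 13.5 CPM with EtOH. The log2 fold change was 0.25 ± 0.18 at 1 h, 0.24 ± 0.17 at 3 h, 0.15 ± 0.19 at 5 h, -0.0030 ± 0.17 at 7 h, -0.29 ± 0.18 at 9 h and 0.20 ± 0.21 at 11 h. The lowest unadjusted p was 0.134, at 9 h.

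ATP1B1 (ENSG00000143153.12, chr1:169105697-169132722, plus strand), the beta subunit that carries the Na,K-ATPase to the cell surface, fell. At 1 h it measured 193 and 170 CPM with dex against 185 and 196 CPM with EtOH, so the groups overlapped. At 3 h it was 145 and 138 CPM against 219 and 200 CPM, and at 5 h 156 and 162 CPM against 181 and 198 CPM. From 3 h on, every dex library was below every EtOH library of its time. The level was 134 and 149 CPM against 185 and 188 CPM at 7 h, 127 and 123 CPM against 180 and 190 CPM at 9 h, and 120 and 124 CPM against 191 and 191 CPM at 11 h.

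The log2 fold change of ATP1B1 was -0.08 ± 0.11 at 1 h, -0.56 ± 0.097 at 3 h, -0.25 ± 0.10 at 5 h, -0.39 ± 0.079 at 7 h, -0.56 ± 0.11 at 9 h and -0.63 ± 0.13 at 11 h. The adjusted p was 0.983 at 1 h, and from 3 to 11 h it was 0.000151, 0.0746, 0.000222, 0.00297 and 0.00768. The call at 3 h held in every alternative, while that at 5 h was lost with DESeq2 (adjusted p = 0.168). It was also lost at 5 h without EtOH replicate 2, dex replicate 1 or dex replicate 2 (adjusted p = 0.357, 0.254 and 0.149), at 7 h without dex replicate 1 (0.105), at 9 h without either dex library (at most 0.159) and at 11 h without either EtOH library (at most 0.202). Of its 50-base stretches, 4.92% are antisense to NME7. The dex effect on ATP1B1 was more negative at 3 h than at 1 h by 0.50 on the log2 scale (a difference of -0.50 ± 0.13, adjusted p = 0.0288). That call was lost without a filter on low counts.

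Across the time course, the dex effect differed between time points for 3 of the 7 genes in a fit of all 24 libraries (15.4% of all tested genes were called), namely SCNN1A (adjusted p = 1.74e-08), SGK1 (0.0107) and ATP1B1 (0.013). SGK1 was lost from these without dex replicate 2 of 1 h (adjusted p = 0.116) or EtOH replicate 2 of 1 h (0.105). From 1 to 3 h the change in effect was called for SGK1, SCNN1A and ATP1B1 (4.88% of all tested genes), and from 3 to 5 h (6.94%) and from 5 to 11 h (2.91%) for SCNN1A alone among the 7. With EtOH none of the 7 changed over time in edgeR (0.0522% of all tested genes did). Only NEDD4L had an unadjusted p below 0.05 there, and DESeq2 called it (adjusted p = 0.0941).

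Other genes of the pathway were taken from 7 lists with 61 genes, of which 45 passed the filter. HSD11B1 and HSD11B2 passed only through their dex libraries and are left out of the counts. At 5 h, 12 of the other 43 were called higher (12.4% of all tested genes) and 5 lower (12.6%), and their median log2 fold change was 0.03 against 0.01 over all tested genes. Of 8 genes for the ENaC delta subunit and channel-activating proteases and their inhibitors, only 3 passed, and prostasin (PRSS8), matriptase (ST14), TMPRSS2 and TMPRSS4 had at most 6 counts in any library. The mineralocorticoid receptor NR3C2 had at most 2 counts. Among the other SGK1 substrates 3 of 5 were called higher at 5 h. The list of ubiquitin and adaptor control of ENaC had 3 of 8 higher and 1 lower, and that of SGK1 activators and AKT kinases 1 of 11 higher and 2 lower. The list of WNK-SPAK kinases and other ion transporters had 3 of 7 tested higher and 1 lower. The list of corticosteroid receptors, enzymes and transcriptional control had 1 of 4 higher and 0 lower.

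Called at 2 or more consecutive time points with the same sign were 12 list genes in the higher direction (10.5% of all tested genes) and 3 in the lower (9.38%). Among those with the largest mean rise was TSC22D3, which encodes GILZ, a protein that acts on NEDD4-type ligases to stabilize ENaC. It rose from 7.08 and 9.64 CPM with EtOH to 75.5 and 85.1 CPM with dex at 1 h, a log2 fold change of 3.24 ± 0.16 (adjusted p = 6.80e-10), and was called at all 6 time points. PER1, a clock gene that also regulates the alpha ENaC gene in the kidney, was likewise called at all 6, with log2 fold changes from 2.66 at 1 h to 3.88 at 3 h. The SGK1 substrates FOXO1, a transcription factor, and NDRG1 were called from 3 to 11 h, FOXO1 at 1.21 to 2.16 and NDRG1 at 1.65 to 2.05. NEDD4, on the same list as TSC22D3, was called higher at 5 time points. At 7 h NEDD4 measured 836 and 859 CPM with dex against 275 and 284 CPM with EtOH.

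The enzymes that interconvert active and inactive GCs are described by their counts. Both were named for their rise with dex and passed the filter only through dex libraries, so the ratios below are descriptions. HSD11B1, which regenerates cortisol, had at most 1 count in each EtOH library and 48 and 41 counts with dex at 5 h. With the 2 EtOH libraries together set at a floor of 3 counts, it was 35.7-fold higher, and the exact lower limit was 28.5. At 11 h it had 14 and 11 counts with dex and none with EtOH. HSD11B2, which inactivates cortisol in aldosterone targets, had at 5 h 13 and 20 counts in the dex libraries and 1 and 5 in the EtOH libraries. The ratio in CPM was highest there, at 6.63 (95% interval 2.74 to 19.3). It was 1.02 at 1 h, 3.54 at 3 h, 2.20 at 7 h, 3.64 at 9 h and 3.03 at 11 h.

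In the lower direction stood NR3C1, SLC12A2 and PRR5. NR3C1 encodes the GC receptor itself and was called at 3, 9 and 11 h, with log2 fold changes of -0.61 ± 0.094, -0.44 ± 0.13 and -0.50 ± 0.15. SLC12A2, the basolateral sodium-potassium-chloride cotransporter of secreting epithelia, was called from 3 to 9 h. It was lowest against EtOH at 5 h, where 54.7 and 56.8 CPM with dex stood against 95.7 and 101 CPM (log2 fold change -0.82 ± 0.11). PRR5, a subunit of the TORC2 complex that activates SGK1, was called at 7 and 9 h at -0.83 ± 0.29 and -0.96 ± 0.28. PRR5L, on the same list, went the other way and was called higher at 5 time points, with a mean log2 fold change of 0.587.

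**Figure D5:**
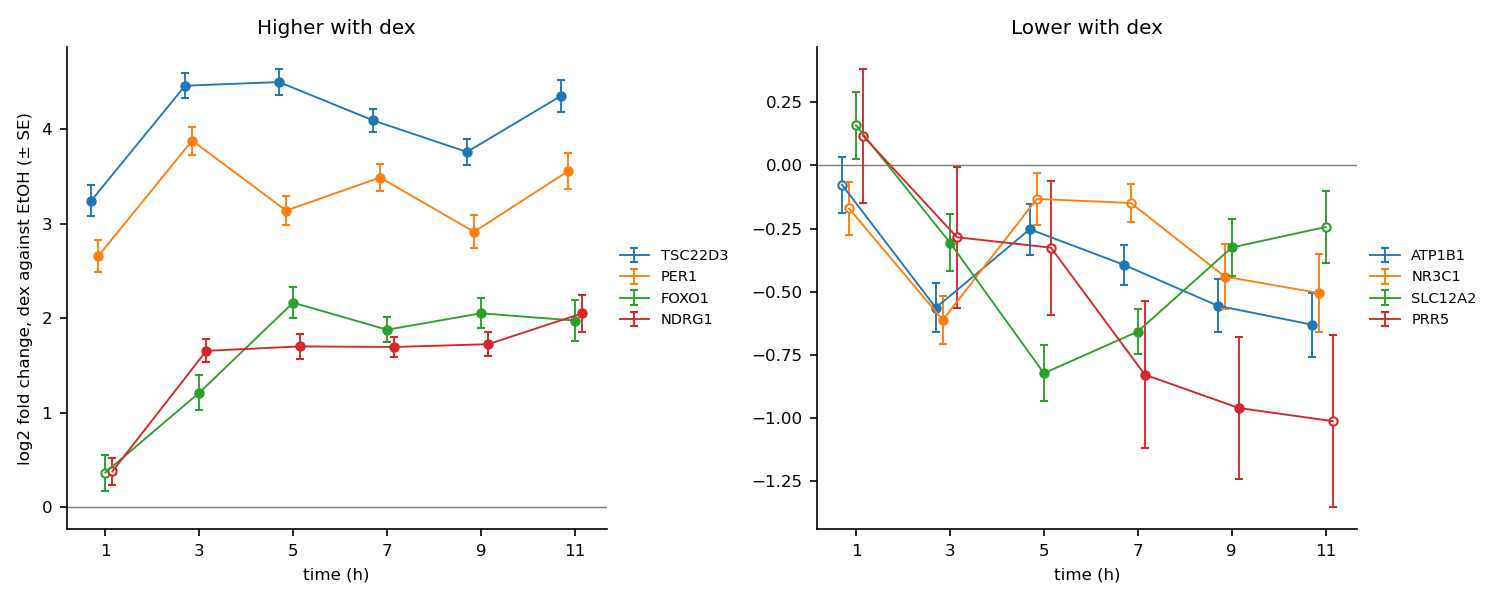
Log2 fold change of dex against EtOH (± SE, n = 2 libraries per group) against time in hours for genes of the pathway lists, with ATP1B1 for comparison; filled points have an adjusted p of at most 0.1, and points are shifted sideways for clarity. On the left, TSC22D3 and PER1 are called at all 6 time points; on the right, ATP1B1 stays below 0 and SLC12A2 is lowest at 5 h (-0.82). HSD11B1 and HSD11B2 are left out because of their low counts.

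The 5 genes whose levels over the 24 libraries were most like those of SGK1, by Pearson's r of log2 CPM, were CPEB4 (r = 0.987), STK17B (0.984), TGFBR1 (0.981), THBD (0.979) and EPB41L4B (0.976). These r are descriptions, and 291 genes reached 0.9 or more. The points share the split into dex and EtOH libraries, which sets much of their r. Within the 12 dex libraries r was 0.955 for CPEB4, a binder of polyadenylation elements in mRNA, 0.935 for the kinase STK17B, 0.949 for the TGF-beta receptor TGFBR1, 0.847 for thrombomodulin (THBD) and 0.891 for EPB41L4B. Within the 12 EtOH libraries it was between 0.315 (TGFBR1) and 0.785 (EPB41L4B). Of the 7 genes used for calls, SCNN1A (0.871) came nearest to SGK1 over all libraries and ATP1B1 was opposite (-0.883). Within the dex libraries these r were 0.743 and -0.658, and within the EtOH libraries 0.230 and -0.210.

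Libraries held between 6708864 and 13748598 counts, with a median of 9975978.5 for dex and 10112359.5 for EtOH. Replicates correlated at r = 0.984 to 0.991 across genes on the log2 scale, and their counts differed beyond sampling noise in every group. The dex libraries at 11 h were the least alike (chi-square per degree of freedom 19.9). Keratins 7, 8 and 18, EPCAM and CDH1 were all present, with a summed level of 4571 to 12354 CPM with dex and 3888 to 6269 CPM with EtOH. Nearly all of this sum is keratin. EPCAM measured 5.46 and 5.38 CPM with dex against 8.49 and 10.8 CPM with EtOH at 5 h, and 5.32 and 4.09 CPM against 9.14 and 9.51 CPM at 7 h. CDH1 went the other way at these times, with 60.3 and 55.0 CPM with dex against 35.4 and 37.8 CPM with EtOH at 5 h. At 7 h CDH1 measured 44.8 and 47.0 CPM against 28.7 and 34.4 CPM. The higher keratin and CDH1 levels and the lower EPCAM levels move with the results above, and their part in them was not tested. The surfactant genes that define alveolar type II cells were at or near 0 (SFTPA1 had no count and SFTPC at most 1). CD3E had no count in any library. PECAM1 was not among the genes to which transcripts could be assigned, so its level is unknown. The 3 blood genes summed to 0.733 to 3.60 CPM with dex and 0.950 to 3.17 CPM with EtOH. For the 3 fibroblast genes the sums were 0.699 to 2.77 and 1.08 to 3.09 CPM. The endothelial genes VWF and CDH5 together reached at most 1.06 CPM. In bulk RNA, fewer cells of a type and less RNA per cell cannot be told apart.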

How the data were processed

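Stranded poly-A RNA of 24 libraries was read as 50-base single ends. The authors aligned reads with Bowtie to GENCODE release 19 transcripts (hg19) and deposited raw read counts per transcript, taken with SAMtools, and the placement of reads that match several transcripts is not given in the sources used here. Transcript IDs without version were matched to GENCODE release 29 on GRCh38 (110262 of 119207 transcripts, 94.08% of counts) and summed per gene. Totals ran from 6708864 to 13748598 per library, and intervals and floors cover counting error only.

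Genes were tested with edgeR 4.0.16 in R 4.3.3 (TMM, filterByExpr, robust quasi-likelihood fit), each time point by itself with 2 libraries per group, and one fit of 24 libraries for differences between time points and for time with EtOH. P-values were adjusted by Benjamini-Hochberg over all 15337 genes or up to 56380 transcripts, with a threshold of 0.1. For transcripts against the rest of their gene, the adjustment ran over up to 51804 transcripts. Each SE was obtained by dividing the log2 fold change by the square root of F. The biological coefficient of variation ran from 6.49% (7 h) to 12.7% (11 h). Alternatives were DESeq2 1.42.0 (tool and size factors), 2 other filters, a threshold of 0.05, one transcript per gene, one fit of all libraries, a replicate block and leaving out each library. The tests were run on simulated data first.

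The genes and lists were chosen with earlier results of these data known. Genes that passed the filter only through 1 treatment (10 counts at the median depth in at least 2 libraries) were left out of counts of calls, a choice made after seeing the data. Besides the 9 genes, the text names up to 6 list genes per direction with the largest mean log2 fold change among those called at 2 or more consecutive time points with one sign, and the 5 genes most correlated with SGK1. PRR5L and NEDD4 are named as well, a choice made after seeing the data. The marker lists cover epithelial, surfactant, blood, fibroblast and endothelial genes. The result of 1 of the 7 pathway lists is not reported here.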

Additional observations from a re-analysis of the deposited data

Results flagged for a closer look

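The effect of dex differed between time points, by edgeR in a fit of all 24 libraries, for SCNN1A (adjusted p = 1.74e-08), SGK1 (0.0107) and ATP1B1 (0.013). Between 1 and 3 h it changed for SCNN1A (4.76e-05), SGK1 (0.00581) and ATP1B1 (0.0288), between 3 and 5 h for SCNN1A (0.00181), and between 5 and 11 h for SCNN1A (0.0708). The SGK1 value over all time points is the least firm, as given with the time course above. Groups of 2 libraries are too small to look for a library far from its group.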

How the results depend on the processing

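Of the alternatives for the called fold changes of the 7 genes, 230 kept direction and call and 30 kept direction only. For uncalled fold changes 263 stayed as they were, 7 became called and 16 turned sign. The calls of SGK1 and SCNN1A from 3 to 11 h held in each alternative run. The cause of the changes below was not tested.

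At 5 h 5 of the 7 genes were called, but 2 with DESeq2, 2 with one transcript per gene and 2 at a threshold of 0.05. Over all genes DESeq2 called 1208 at 3 h, 2348 at 5 h, 2464 at 7 h and 1831 at 9 h, against 2159, 3834, 4324 and 3033 with edgeR. Without a filter 262 genes were called at 1 h, against 162, and one fit of all libraries called 2478 at 11 h, against 1399. Over time with EtOH, 8 genes were called, but 644 with DESeq2, 1237 without a filter, 19 with the replicate block and 3 at a threshold of 0.05, which also left 473 of 748 genes between 1 and 3 h and 244 of 446 between 5 and 11 h. Without a filter 3 SGK1 transcripts were called at 1 h. Of the 7 genes, DESeq2 and the fit without a filter each called 1 over time with EtOH, NEDD4L in both. Leaving out 1 library gave 0 to 2 genes at 1 h, 3 to 4 at 3 h, 2 to 4 at 5 h, 2 to 5 at 7 h, 2 to 4 at 9 h and 2 to 4 at 11 h, 0 to 5 SGK1 transcripts at 1 h and 2 to 6 at 11 h, and 2 to 3 genes whose effect differed between time points.

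The log2 fold change of SGK2 at 1 h turned to -0.00055 with 10 counts required in every library, -0.0038 with DESeq2, -0.019 with the crossed replicate block, -0.022 without a filter and -0.0089 with the replicate block, and ran from -0.23 to 0.17 without 1 library. With one transcript per gene, NEDD4L at 7 h was -0.14 and CNKSR3 at 7 h 0.026. Without 1 library, SGK3 at 1 h ran from -0.15 to 0.064, NEDD4L at 3 h from -0.18 to 0.067, CNKSR3 at 7 h from -0.069 to 0.064 and ATP1B1 at 1 h from -0.17 to 0.014.

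Libraries share replicate numbers, and same-numbered libraries correlated in their deviations at 0.397, -0.260, 0.049, 0.015, 0.234 and 0.015 from 1 to 11 h. The labels name no shared batch and the values were not above 0.1 at every time point, so the numbers were not taken to pair the libraries, though at 1 and 9 h a pairing remains possible. With the replicate block 1, 3, 5, 4, 3 and 4 of the 7 genes were called, as without it, and 5 SGK1 transcripts at 1 h. All tested genes called with the block were 583 at 1 h, against 162 without it, and 4389 at 9 h, against 3033. The crossed pairing at 3 h, chosen after seeing the data, called 4 of the 7 genes and 3597 genes in all, against 1862 with the block and 2159 without it.

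Counts of SCNN1G and SCNN1B, at most 17 per library, limit what can be said of ENaC.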
